A study of Papio anubis with 767 samples.

Results

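The mRNAs of 6 enzymes that act on the PERIOD clock proteins were followed through 64 tissues of the olive baboon: the casein kinases CSNK1D, CSNK1E and CSNK1A1, the F-box proteins BTRC and FBXW11, and the kinase GSK3B. They were found by gene symbol in the deposited expression table, where each has 1 row, so that they make up 6 of 29202 rows and of the 20432 rows that carry a symbol of their own. The samples came from 12 male Papio anubis hamadryas aged 5 to 6 years, in a cycle of 12 h light to 12 h dark with food at set hours, and 1 animal was killed and perfused every 2 h. Times are zeitgeber times (ZT), counted in hours from lights on, from ZT0 to ZT22. Each tissue has 12 libraries of polyA RNA, except the iris with 11, and no animal differs from the others in genotype or treatment. By the labels the libraries of a time come from the same animal in all tissues, so time of day and animal cannot be told apart, and n counts the 12 animals in every test. Tissues are grouped below as 22 brain regions, 7 others of the head (5 eye tissues, pineal gland and pituitary), and 35 peripheral tissues.

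The PER proteins are the inhibitors of the circadian clock's feedback loop, and how long they last sets much of its pace. CSNK1D and CSNK1E, which are close paralogs, phosphorylate PER; the F-box proteins BTRC and FBXW11, also paralogs and together called beta-TrCP, bind the phosphorylated protein and bring it to a cullin ubiquitin ligase, which marks it for the proteasome. CSNK1A1 is best known as the kinase that starts the breakdown of beta-catenin, which GSK3B continues and beta-TrCP completes, and GSK3B also phosphorylates several clock proteins. CSNK1E is the gene altered in the tau hamster, whose daily rhythm runs short. Only mRNA was measured here, not protein or kinase activity.

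Expression is given as FPKM, fragment counts scaled by gene length and by library, which allows levels of different genes to be set side by side. All 6 genes had a mean of at least 1 FPKM in 64 of 64 tissues. The shallowest library held 32790 assigned reads, the deepest 31.8 M reads and the median one 8.26 M reads (M, mega), and the 6 genes had a median of 99 (BTRC) to 556 (CSNK1A1) reads per library. In the shallowest library, amygdala at ZT8, all 6 genes had 0 reads. A check against marker genes found 83 libraries that held markers of another tissue. A check of which libraries share an animal found 93 libraries, in 21 tissues, that matched the animal of another time, among them all those of the stomach fundus, testicles and thyroid. The libraries labelled adrenal cortex lacked adrenocortical markers (median 0.348 FPKM, against 7207 FPKM for smooth muscle markers). Such a value is the median over libraries of each library's median over the markers of a list. The nearest libraries of another label came from stomach fundus or omental fat at each of the 12 times. The libraries labelled adrenal medulla held adrenocortical markers at a median of 4211 FPKM, against 20.1 FPKM for medullary markers. In stomach fundus the smooth muscle markers had a median of 5480 FPKM, against 54.4 FPKM for gastric markers, with libraries from 4.88 to 31238 FPKM for the latter. In testicles the spermatid markers had a median of 5.18 FPKM, with libraries from 0.224 to 2589 FPKM. In omental fat, the median of the smooth muscle markers in a library was 4.70 to 30.06 FPKM from ZT0 to ZT6. From ZT8 to ZT22 it was 947.7 to 7814 FPKM. In tissue samples, fewer cells of a type and less RNA per cell cannot be told apart. How the counting treated reads that match both members of a paralog pair is not given in the sources used here.

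The kinase CSNK1E varied most among the 6 across the body, with tissue means from 1.83 ± 1.54 FPKM in kidney cortex to 53.6 ± 74.8 FPKM in iris (SD, n = 12 and n = 11), a 29.3-fold span. CSNK1D spanned 9.71-fold, CSNK1A1 16.4-fold, BTRC 13.4-fold, FBXW11 12.8-fold and GSK3B 5.14-fold. On the log2 scale the SD of CSNK1E over tissue means was 1.10, and 65.3% of the 12146 genes with enough signal varied less. The SDs of the other members, between 0.57 for GSK3B and 0.76 for FBXW11, were below the median of all genes, 0.92. Sorted by mean level, CSNK1D, CSNK1E, BTRC and GSK3B formed a continuous series: in 63 of 63 steps from a tissue to the next lower one, the means differed by less than the larger spread of that pair. For CSNK1A1 that held in 60 of 63 steps and for FBXW11 in 61 of 63.

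**Figure D1:**
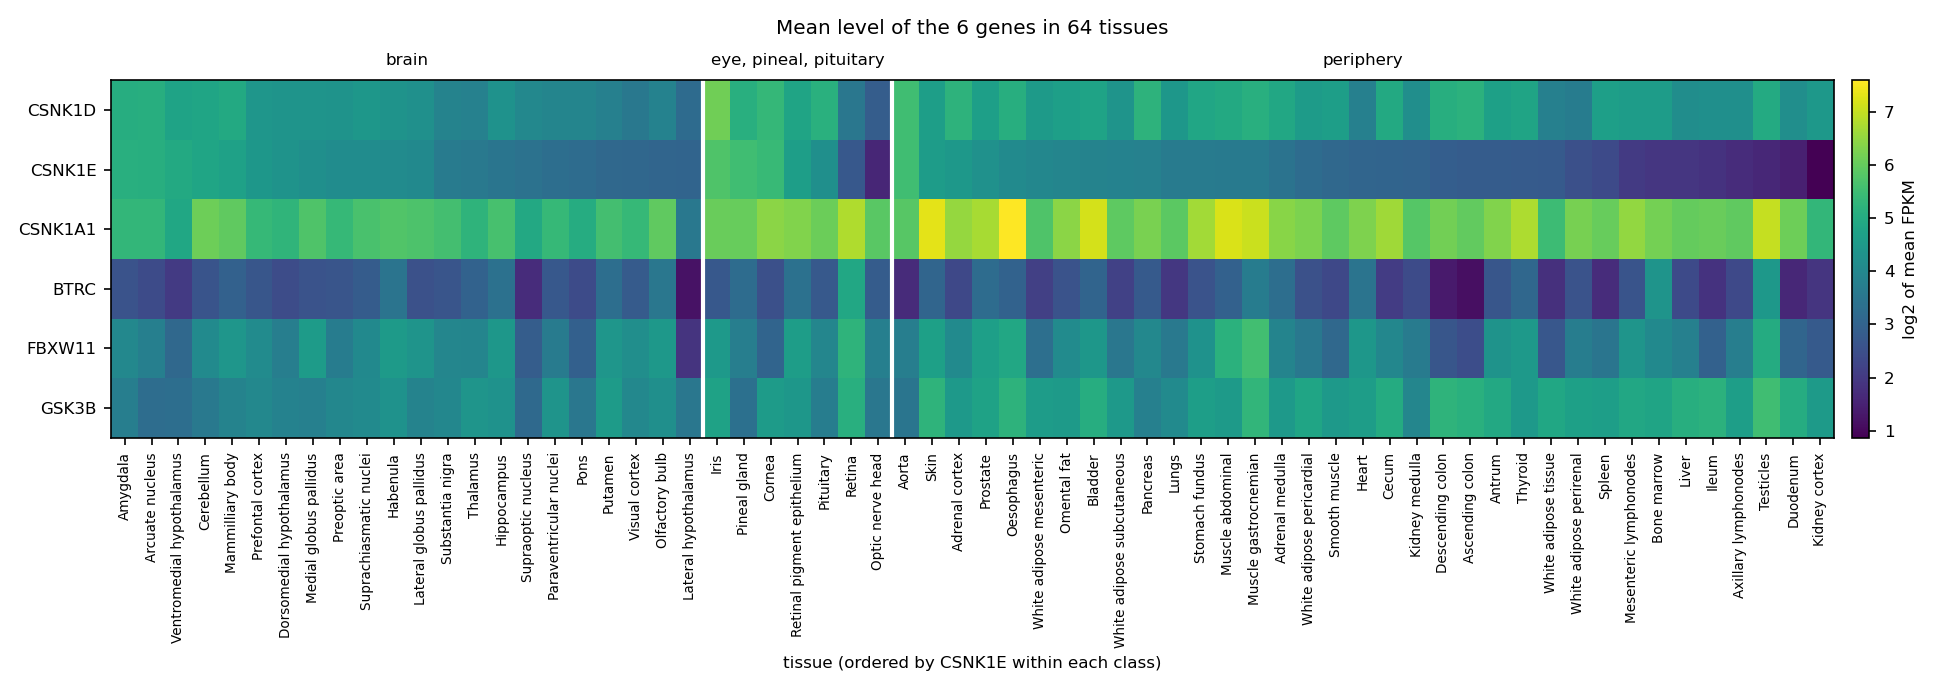
Level of each gene (rows) in each of the 64 tissues (columns, by class and then by CSNK1E), shaded by the log2 of the tissue's mean FPKM. CSNK1A1 has the brightest row (median 63.5 FPKM) and BTRC the darkest (median 6.17 FPKM), and CSNK1E changes shade most, with its darkest cells in kidney cortex, duodenum and optic nerve head.

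CSNK1D, a main PER kinase, was led by the iris at 69.8 ± 53.8 FPKM (SD, n = 11) and by the aorta at 46.4 ± 6.41 FPKM (SD, n = 12). Without libraries that held markers of another tissue both stood at 47.8 FPKM, with an SD of 22.9 in iris (n = 9) and 4.18 in aorta (n = 11). In the aorta its lowest, median and highest libraries were 30.4, 46.5 and 53.5 FPKM. It was lowest in optic nerve head, with 7.19 ± 3.43 FPKM (SD, n = 12) and libraries from 1.96 to 13.6 FPKM. All aorta libraries were thus above all optic nerve head libraries. Both tissues were picked by these values, and the share of all genes with such a separation was not counted. A tissue was called higher or lower than the rest when its log2 level, compared with the mean of all other tissues within each animal, differed by 1 or more at a limma adjusted p under 0.05. Over all genes and tissues, 12.6% of comparisons were called higher and 12% lower. For CSNK1D 2 of 64 tissues were called higher (iris and aorta) and 2 lower (optic nerve head and lateral hypothalamus).

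CSNK1E, its paralog, was called higher in 12 tissues and lower in 10. Aorta stood 2.15 ± 0.15 above the other tissues on the log2 scale (SE, n = 12; higher in 12 of 12 animals; limma adjusted p = 1.62e-08), with libraries from 29.2 to 61.0 FPKM around a median of 48.6. Pineal gland, the source of melatonin, followed at 2.07 ± 0.27 (SE, limma adjusted p = 2.05e-05) and cornea at 1.97 ± 0.08 (SE, limma adjusted p = 2.81e-11). The brain regions called higher were arcuate nucleus, ventromedial hypothalamus, mammilliary body, cerebellum and prefontal cortex. The tissues called lower were kidney cortex, liver, ileum, duodenum, spleen, bone marrow, both lymph node sites, testicles and optic nerve head. Kidney cortex stood 2.49 below the others (log2 difference -2.49 ± 0.19, SE, n = 12; lower in 12 of 12 animals; limma adjusted p = 1.01e-07), with libraries from 0.0903 to 5.05 FPKM. All aorta libraries exceeded every kidney cortex library, but these tissues were picked by their values, and the share of all genes with such a separation was not counted. Of the calls, those in prefontal cortex, the libraries labelled adrenal cortex and spleen lay at the threshold, with log2 differences of 1.01, 1.03 and -1.04, and were under it in 10, 3 and 5 of the other settings and refits.

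Libraries with markers of another tissue weighed on several CSNK1E means. In liver CSNK1E averaged 3.84 ± 7.40 FPKM (SD, n = 12), and 0.529 ± 0.319 FPKM over the 6 libraries without such markers (SD, n = 6), a change of 7.25-fold. The liver libraries of ZT0 and ZT6, both of which held markers of another tissue, were the highest at 18.2 and 21.0 FPKM, against a median of 0.745 FPKM over the tissue. In ileum the mean was 3.63 FPKM with all 12 libraries and 1.90 FPKM over the 10 without other markers. In iris it was 53.6 FPKM with all 11 libraries and 21.4 ± 12.1 FPKM over 9 (SD, n = 9), with which the iris call for CSNK1E was lost.

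CSNK1A1, the beta-catenin priming kinase, had the highest median level of the 6, 63.5 FPKM over tissues. Oesophagus led with 192 ± 19.7 FPKM (SD, n = 12), its libraries running from 160.3 to 237 FPKM around a median of 189 FPKM. Every oesophagus library was above every library of 60 other tissues, and the log2 difference from the other tissues was 1.66 ± 0.05 (SE, limma adjusted p = 1.49e-12). The share of all genes whose highest tissue stands apart in this way was not counted. Skin, muscle abdominal, bladder, muscle gastrocnemian and testicles were also called higher. Supraoptic nucleus, ventromedial hypothalamus and lateral hypothalamus were called lower, and the last of these fell furthest, by 2.54 ± 0.22 (SE, limma adjusted p = 4.83e-07), to 11.7 ± 6.27 FPKM (SD, n = 12).

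BTRC, the first beta-TrCP, was highest in retina, with 29.8 ± 5.56 FPKM (SD, n = 12). Its retina libraries ran from 21.5 through a median of 28.8 to 39.7 FPKM, above every library of 60 other tissues. How many of all genes have such a tissue was not counted. The log2 difference was 2.24 ± 0.08 (SE, limma adjusted p = 1.89e-11). Testicles, bone marrow and muscle gastrocnemian were also called higher, while ascending colon, descending colon and lateral hypothalamus were called lower. Ascending colon had the lowest mean, 2.22 ± 0.73 FPKM (SD, n = 12). FBXW11, the other beta-TrCP, was highest in muscle gastrocnemian, at 46.9 ± 4.54 FPKM (SD, n = 12) and 36.9 to 54.9 FPKM, and retina came next with 37.5 ± 6.06 FPKM (SD, n = 12). Muscle gastrocnemian stood 1.75 ± 0.05 above the other tissues on the log2 scale (SE, limma adjusted p = 4.34e-12). Lateral hypothalamus was again lowest, with 3.67 ± 3.21 FPKM (SD, n = 12) and a log2 difference of -2.21 ± 0.32 (SE, limma adjusted p = 4.14e-05). FBXW11 was called higher in 5 tissues and lower in 7.

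GSK3B, the Wnt and clock kinase, had the narrowest span. It was highest in testicles, at 46.5 ± 24.2 FPKM (SD, n = 12), where 1 library at ZT14 reached 117 FPKM and the median was 37.3 FPKM. Without that animal no tissue was called higher for GSK3B, since the log2 difference of 1.08 dropped to 0.96. Of the 5 tissues called lower, supraoptic nucleus was lowest, at 9.03 ± 2.25 FPKM (SD, n = 12), and arcuate nucleus, ventromedial hypothalamus and pineal gland lay within its spread. The remaining tissue, amygdala, was called through its 0-read library.

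Lateral hypothalamus was thus called lower for 4 of the 6 genes (CSNK1D, CSNK1A1, BTRC and FBXW11), in a tissue where 23.1% of all genes were. CSNK1E and GSK3B differed there by log2 -0.51 and -0.86 from the other tissues, within the threshold of 1. In suprachiasmatic nuclei, where the brain's master clock lies, none of the 6 genes was called. The means there were 21.5 ± 5.95 FPKM for CSNK1D, 17.4 ± 6.99 FPKM for CSNK1E, 50.2 ± 18.01 FPKM for CSNK1A1, 7.05 ± 3.16 FPKM for BTRC, 16.7 ± 7.85 FPKM for FBXW11 and 16.9 ± 2.87 FPKM for GSK3B (SD, n = 12). CSNK1E was the member farthest above the other tissues in suprachiasmatic nuclei, by log2 0.70 ± 0.09 (SE, n = 12; higher in 12 of 12 animals; limma adjusted p = 1.05e-05).

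The paralog kinases differed between brain and periphery in opposite directions. CSNK1E was higher in the brain regions, at a log2(FPKM + 0.5) of 3.41 to 4.49 with a median of 3.72 over the 12 animals, against 2.15 to 3.71 with a median of 3.02 in peripheral tissues. Within each animal the brain was higher in 12 of 12, by 0.87 ± 0.07 on the log2 scale or 1.83-fold (SE, limma adjusted p = 8.13e-10). CSNK1D was lower in brain in 12 of 12 animals, by log2 -0.41 ± 0.05 (SE, limma adjusted p = 2.79e-07), with 3.81 to 4.52 in brain and 4.20 to 5.05 in periphery on the log2(FPKM + 0.5) scale. For both genes the ranges over animals overlapped, while the within-animal differences all had the same sign. Over all genes tested, 44.2% were higher and 47.4% lower in brain, so that a call as such was the common outcome.

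CSNK1A1 was lower in brain by log2 -0.97 ± 0.05 and GSK3B by -0.83 ± 0.04 (SE, n = 12; limma adjusted p = 3.80e-12 and 2.22e-12), in 12 of 12 animals each. CSNK1A1 had 5.05 to 5.61 in brain and 5.89 to 6.51 in periphery on the log2(FPKM + 0.5) scale, and GSK3B had 3.70 to 4.12 in brain and 4.48 to 5.00 in periphery. For these 2 genes the ranges of the brain and periphery values did not overlap, and the share of all genes for which this holds was not counted. The F-box genes were not called, since BTRC differed by 0.05 ± 0.06 (SE, limma adjusted p = 0.375) and FBXW11 by -0.06 ± 0.07 (SE, limma adjusted p = 0.406). The median of all genes was -0.04. When every library was scaled to an equal sum of FPKM, that median moved to -0.69, BTRC turned to -0.58 and FBXW11 to -0.73. CSNK1E was then at 0.22 (limma adjusted p = 0.00866) and CSNK1D at -1.07, so that both kept their direction, and CSNK1A1 was at -1.66 and GSK3B at -1.50. Relative to the median of all genes, CSNK1E stood at 0.91, CSNK1D at -0.39, BTRC at 0.11 and FBXW11 at -0.04 under that scaling, against 0.91, -0.36, 0.10 and -0.02 as deposited.

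Within the CSNK1D and CSNK1E pair, CSNK1E made up a median of 44.9% of the summed FPKM over brain regions (33.7% to 53.0%), 34.1% over eye tissues and glands and 26.8% over peripheral tissues (6.69% to 49.2%). Its mean share was over 50% in pineal gland (55.7% ± 10.1, SD, n = 12) and ventromedial hypothalamus (53.0% ± 3.93, SD, n = 12), with CSNK1E above CSNK1D in 10 libraries each. In amygdala (50.7% ± 2.75, SD, n = 11) and arcuate nucleus (50.3% ± 2.63, SD, n = 12) the pair was near equality, with CSNK1E above in 7 libraries each. In cornea the mean share was 49.8%, with mean levels of 41.7 FPKM for CSNK1E and 40.6 FPKM for CSNK1D. The lowest mean share was in kidney cortex, at 6.69% ± 4.06 (SD, n = 12). The log2 ratio of CSNK1D over CSNK1E was 0.37 ± 0.24 in brain and 1.64 ± 0.31 in periphery (SD, n = 12), and the difference of -1.28 ± 0.15 (SD) had the same sign in 12 of 12 animals. In the exact two-sided sign-flip permutation test its p was 0.000488, the smallest that 12 animals allow.

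In the beta-TrCP pair, BTRC made up a median of 30.8% of the pair in brain, 33.4% in eye tissues and glands and 27.7% in periphery, and bone marrow was the only tissue with a mean over 50% (54.7% ± 11.8, SD, n = 12; above its paralog in 9 of 12 libraries). The log2 ratio of BTRC over FBXW11 was -1.11 ± 0.07 in brain and -1.23 ± 0.12 in periphery (SD, n = 12). The difference of 0.11 ± 0.13 (SD) was positive in 11 of 12 animals, with a p of 0.0103 in the exact two-sided sign-flip permutation test.

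**Figure D2:**
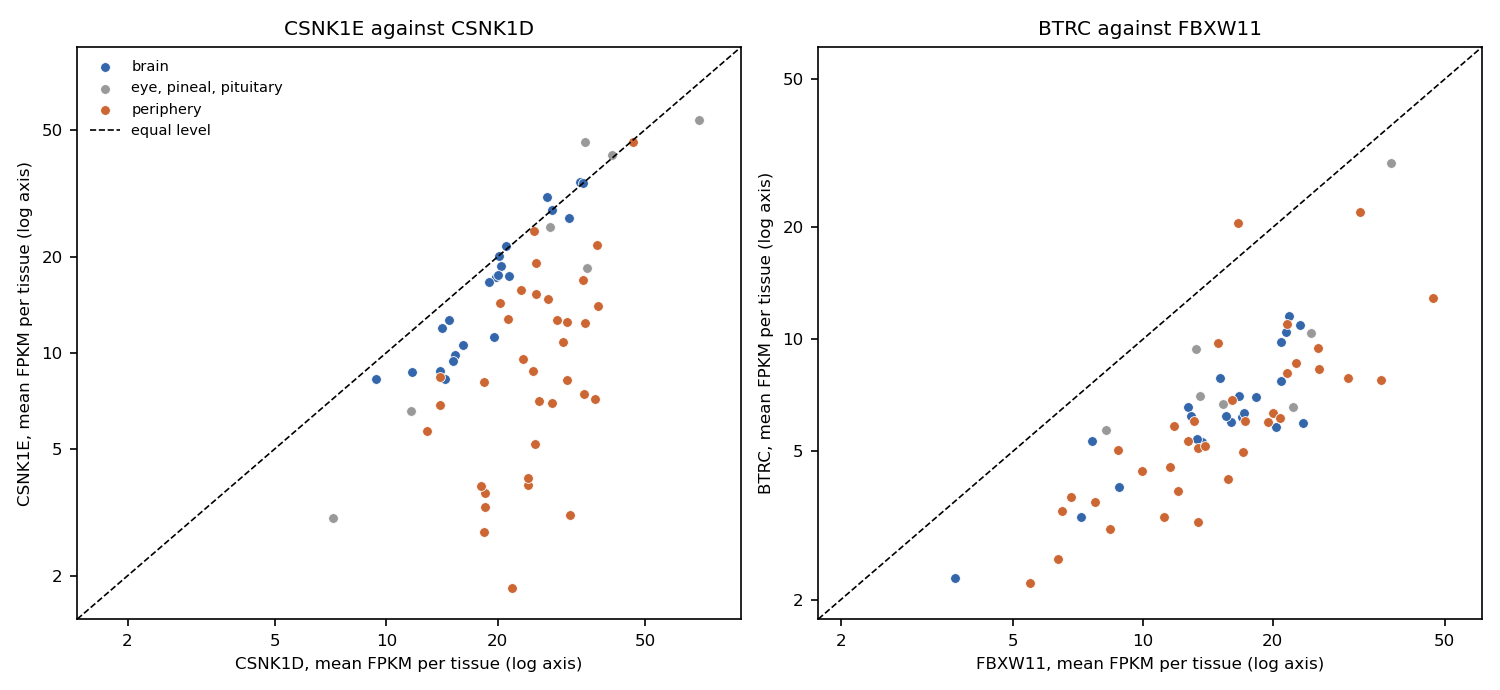
Mean FPKM of CSNK1E against CSNK1D (left) and of BTRC against FBXW11 (right), on log axes; each point is 1 of 64 tissues, coloured by class. Brain points lie nearer the line of equal levels than peripheral points in the kinase pair (medians of 44.9% and 26.8% CSNK1E), and bone marrow is the only point above the line in the F-box pair.

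Across the 64 tissue means on the log2 scale, BTRC and FBXW11 moved together most closely, with a Pearson r of 0.80. The next were CSNK1A1 with FBXW11 (r = 0.67), CSNK1A1 with GSK3B (r = 0.65) and CSNK1D with CSNK1E (r = 0.54), and CSNK1E with GSK3B was the most negative (r = -0.47). Tissue means share their animals and their library scaling, so these values only describe. Among 10605 other genes, the profile most like CSNK1E was that of ATN1 (r = 0.92) and the one most like CSNK1A1 that of TSR1 (r = 0.92). RAB1B was nearest to CSNK1D (r = 0.89), ASH1L to FBXW11 (r = 0.92), DNAJC27 to BTRC (r = 0.85) and PAFAH1B1 to GSK3B (r = 0.86), over 64 tissues each. KIDINS220 was among the 3 nearest genes of both F-box genes, at r = 0.82 with BTRC and r = 0.88 with FBXW11.

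Over the day, CSNK1E mRNA was high in the light and low in the dark, averaged over the body. Each library's log2 value was set against its tissue mean and averaged for each animal across the 63 complete tissues, and a 24 h cosine was fitted to the 12 animals. CSNK1E was lowest in the animal of ZT22 at -0.60, had a median of -0.01 and was highest in the animal of ZT2 at 0.67. All 6 animals of the light were above 0 and all 6 of the dark below it, with no overlap. The share of all genes without overlap of light and dark animals was not counted. The fitted log2 amplitude was 0.60 ± 0.07 (SE, n = 12), a 2.30-fold swing with its peak at ZT5.7 (limma adjusted p = 0.000501). Of 12055 genes tested body-wide, 62.4% were called, 36.7% with a peak in the light and 25.7% with one in the dark. Among the called genes, 57.5% peaked within 3 h of ZT6 and 39.3% within 3 h of ZT18.

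CSNK1D rose and fell with the same timing but less widely, from -0.35 in the animal of ZT20 to 0.39 in that of ZT2. Its light and dark animals did not overlap either. The amplitude was 0.26 ± 0.05 (SE, n = 12), or 1.44-fold with a peak at ZT5.7 (limma adjusted p = 0.00371). The log2 ratio of CSNK1D over CSNK1E therefore also moved, with an amplitude of 0.34 and a peak at ZT17.6 (permutation p = 0.00024, 12 animals), so that CSNK1E made up more of the pair by day.

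The remaining genes ran the other way, with smaller swings. GSK3B had an amplitude of 0.19 ± 0.03 with a peak at ZT18.8 and a 1.29-fold swing (SE, n = 12; limma adjusted p = 0.00135), FBXW11 0.17 ± 0.05 at ZT18.3 and 1.26-fold (limma adjusted p = 0.0241), and CSNK1A1 0.15 ± 0.04 at ZT17.9 and 1.24-fold (limma adjusted p = 0.0201). BTRC was not called, at 0.10 ± 0.05 (SE, limma adjusted p = 0.173), but was with each library rescaled to its tissue by the median of ratios (0.16, limma adjusted p = 0.0226). In each of these 4 genes the lowest animal was that of ZT6, and the light and dark animals overlapped. The FBXW11 and CSNK1A1 calls each rested on single animals. Without the animal of ZT4 the limma adjusted p was 0.0561 for FBXW11 and 0.0504 for CSNK1A1, and without that of ZT6 it was 0.0882 and 0.0764. The ratio of BTRC over FBXW11 had an amplitude of 0.07 (permutation p = 0.0776, 12 animals).

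**Figure D3:**
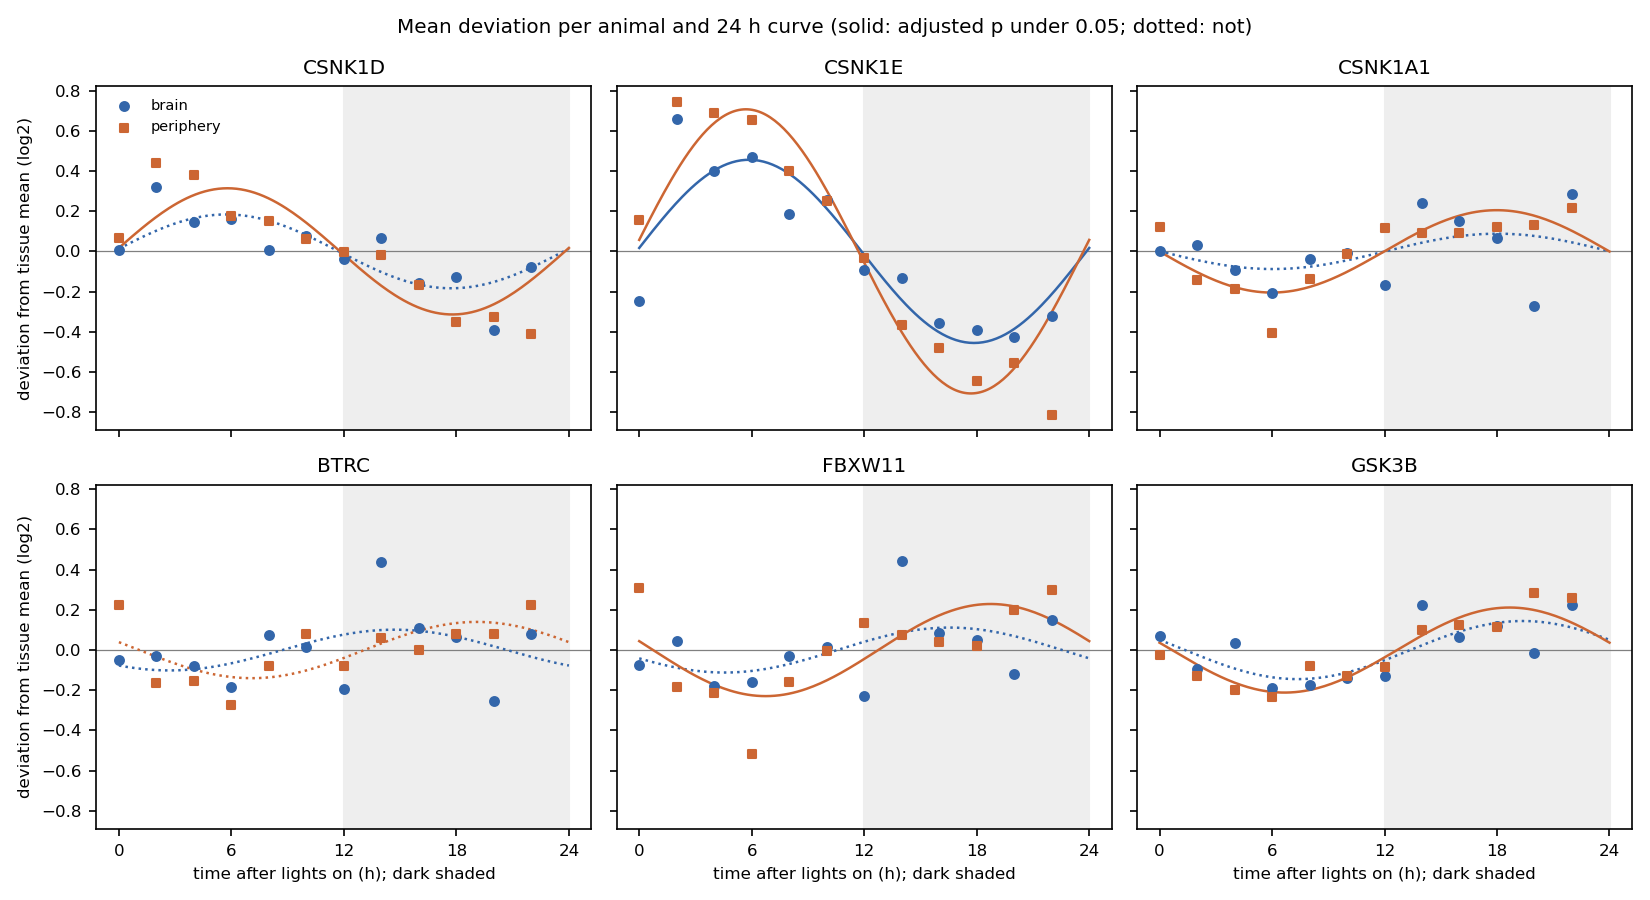
Profile of each gene in brain regions and in peripheral tissues, as log2 deviation from the tissue mean against zeitgeber time in hours. Each point is 1 animal, averaged over the tissues of that set. Each set has its own fitted 24 h cosine, and the dark hours are shaded. CSNK1E peaks at ZT5.9 in brain and ZT5.7 in periphery, and CSNK1D at ZT5.7 and ZT5.8. For both genes, light and dark animals overlap in brain but not in periphery. In periphery CSNK1A1, FBXW11 and GSK3B have shallow curves that peak at ZT18.0 to ZT18.7.

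A wider pattern moved with these values. The first principal component of the same libraries, computed from 12033 genes without the listed genes, held 31.2% of the variance. Its mean score per animal was 0.83 to 0.91 at ZT2, ZT4 and ZT6 and -0.71 to -1.01 at ZT18 to ZT22. Over 755 libraries, which share animals and tissues, its correlation with CSNK1E was 0.81 and with CSNK1D 0.68, and with CSNK1A1, GSK3B, BTRC and FBXW11 it was -0.54, -0.50, -0.47 and -0.46. With this score as a covariate, none of the 6 genes was called body-wide: CSNK1E then had an amplitude of 0.13 (limma adjusted p = 0.597) and GSK3B 0.07 (limma adjusted p = 0.705), and the curves of the other 4 genes, with amplitudes of 0.06 or less, had their peaks on the other side of the day. With a linear trend over the collection order in the fit, CSNK1E was the only member still called body-wide (0.41, limma adjusted p = 0.0449). The amplitudes of CSNK1A1 and FBXW11 were then 0.154 and 0.182, against 0.155 and 0.168 without the trend. Those of CSNK1D and GSK3B fell to 0.110 and 0.141. Both the score and the collection order run with the time of day, so these fits cannot separate a 24 h curve from either. What the component stands for was not tested.

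CSNK1E was the only member called both in brain and in periphery. In the 22 brain regions its animals ran from -0.42 (ZT20) to 0.66 (ZT2), with 5 of 6 light animals and 0 of 6 dark animals above 0, and its amplitude was 0.46 ± 0.07 (SE, n = 12; peak ZT5.9, 1.88-fold, limma adjusted p = 0.00316). In the 35 peripheral tissues the animals ran from -0.81 (ZT22) to 0.74 (ZT2), and the amplitude was 0.71 ± 0.08 (SE, n = 12; peak ZT5.7, 2.66-fold, limma adjusted p = 0.000641). The background of calls was 29% of genes in brain and 60.7% in periphery. The curves of brain and periphery were not shown to differ for CSNK1E, with a difference amplitude of 0.25 ± 0.08 (SE, limma adjusted p = 0.13), where 5.1% of all genes were called.

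For CSNK1D the amplitude was 0.18 ± 0.06 in brain (SE, limma adjusted p = 0.0683) and 0.31 ± 0.06 in periphery (SE, limma adjusted p = 0.00414). Without the shallow amygdala library of ZT8, its brain amplitude was 0.23 with a limma adjusted p of 0.0155. GSK3B had 0.14 ± 0.05 in brain (SE, limma adjusted p = 0.112) and 0.21 ± 0.04 in periphery (SE, limma adjusted p = 0.0035). CSNK1A1 had 0.09 ± 0.07 in brain (SE, limma adjusted p = 0.568) and 0.20 ± 0.05 in periphery (SE, limma adjusted p = 0.0109). FBXW11 had 0.11 ± 0.07 in brain (SE, limma adjusted p = 0.428) and 0.23 ± 0.07 in periphery (SE, limma adjusted p = 0.0415). The peripheral call of FBXW11 was lost without any 1 of the animals of ZT2, ZT4, ZT6, ZT8, ZT14, ZT20 and ZT22, with limma adjusted p between 0.0556 and 0.131. BTRC was not called in brain (0.10 ± 0.07, SE, limma adjusted p = 0.506) or in periphery (0.14 ± 0.05, SE, limma adjusted p = 0.102). For none of the 6 was the difference between brain and periphery called.

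Within single tissues, CSNK1E was called in 13 of 64, CSNK1D in 5, GSK3B in 4, CSNK1A1 and FBXW11 in 3 each and BTRC in 2. Over all 793508 pairs of gene and tissue 6.56% were called, against 20.3% of tissues for CSNK1E, 7.81% for CSNK1D and 3.13% to 6.25% for the other 4 genes. The CSNK1E count was not stable: it ranged from 3 tissues (without the animal of ZT6) to 22 (without that of ZT0), and was 5 without a filter on low values and 3 without moderation. Fitted peaks are counted next for all tissues, called or not. The tissues share the same animals, so their peaks are not independent, and the windows lie around the members' own body-wide peaks. For CSNK1E 54 of 64 tissues had a fitted peak within 3 h of ZT6, for CSNK1D 47, and for GSK3B 47 had one within 3 h of ZT18. The same holds for 39 tissues with CSNK1A1, 28 with FBXW11 and 25 with BTRC around ZT18. Among all pairs 36.0% peaked near ZT6 and 28.5% near ZT18. The median amplitude over tissues was 0.68 for CSNK1E, 0.34 for CSNK1D, 0.27 for FBXW11, 0.26 for BTRC, 0.24 for GSK3B and 0.18 for CSNK1A1, against 0.33 for all pairs.

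**Figure D4:**
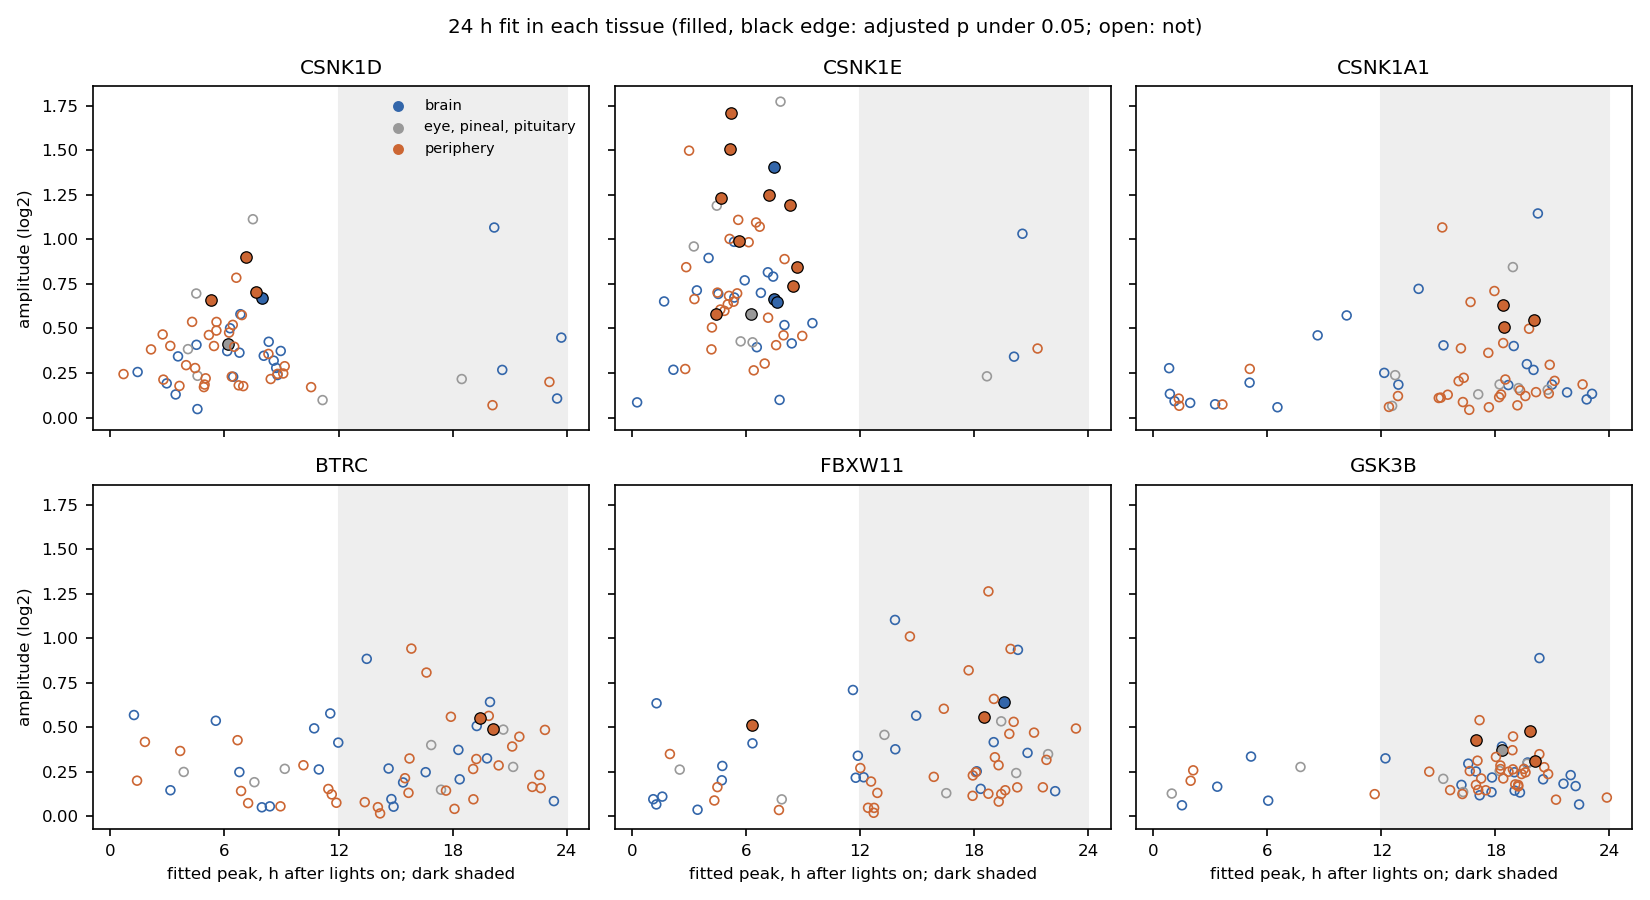
Fitted peak time in hours against fitted log2 amplitude for each gene, 1 panel per gene and 1 point per tissue; filled points are tissues called at an adjusted p under 0.05. CSNK1E and CSNK1D cluster around ZT6 and GSK3B and CSNK1A1 around ZT18, and CSNK1E has more filled points than any other gene, 13 of the 30.

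The widest called swing of CSNK1E was in heart, at 10.7-fold with a peak at ZT5.2 (limma adjusted p = 0.0176), from 0.605 FPKM at ZT22 through a median of 6.61 to 24.7 FPKM at ZT4. The ZT4 library also held adipocyte markers, and without it the amplitude was 1.61 in place of 1.71 and the limma adjusted p was 0.0632. In ileum the swing was 8.08-fold (limma adjusted p = 0.0325), from 0.0864 FPKM at ZT20 to 14.5 FPKM at ZT0, where that library carried markers of another tissue. In visual cortex it was 7.05-fold (limma adjusted p = 0.0315), from 0.718 FPKM at ZT22 to 23.1 FPKM at ZT2. Calls of all genes made up 42.4% in heart, 27.5% in ileum and 20.4% in visual cortex. All 3 were thus low late in the night and high in the morning, but the ileum libraries of ZT0 and ZT4 held neuron markers. Their medians were 127 and 137 FPKM. The ileum call was kept without the libraries holding other markers, but it was lost in 6 of 12 refits without 1 animal.

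In thyroid CSNK1E swung 5.24-fold with a peak at ZT8.3, from 0.85 FPKM at ZT0 through a median of 7.44 to 12.0 FPKM at ZT6 (limma adjusted p = 0.00607). In stomach fundus the swing was 5.64-fold with a peak at ZT7.2, from 1.70 FPKM at ZT0 to 31.6 FPKM at ZT4 (limma adjusted p = 0.0195). These calls were the only ones of CSNK1E kept without any 1 of the 12 animals, but the stomach fundus call was lost without the 2 libraries that held other markers (limma adjusted p = 0.0674). In both tissues every library matched the animal of 2 h before its label, so that the ZT0 library, the lowest, matched the animal of ZT22. Lungs had a 5.52-fold swing, the libraries labelled adrenal medulla 3.96-fold, muscle gastrocnemian 3.23-fold, bladder 2.79-fold, medial globus pallidus 2.52-fold, mammilliary body 2.46-fold, the libraries labelled adrenal cortex 2.24-fold and cornea 2.23-fold. Of all genes, 44.2% were called in thyroid, 34.4% in stomach fundus, 12.3% in lungs, 24.5% in the libraries labelled adrenal medulla, 20.5% in muscle gastrocnemian, 21.9% in bladder, 17.4% in medial globus pallidus, 9.34% in mammilliary body, 18.3% in the libraries labelled adrenal cortex and 19.2% in cornea. Without the libraries holding other markers, the CSNK1E calls in lungs and in the libraries labelled adrenal cortex were lost as well. With all libraries, the 13 peaks lay between ZT4.4 and ZT8.7.

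**Figure D5:**
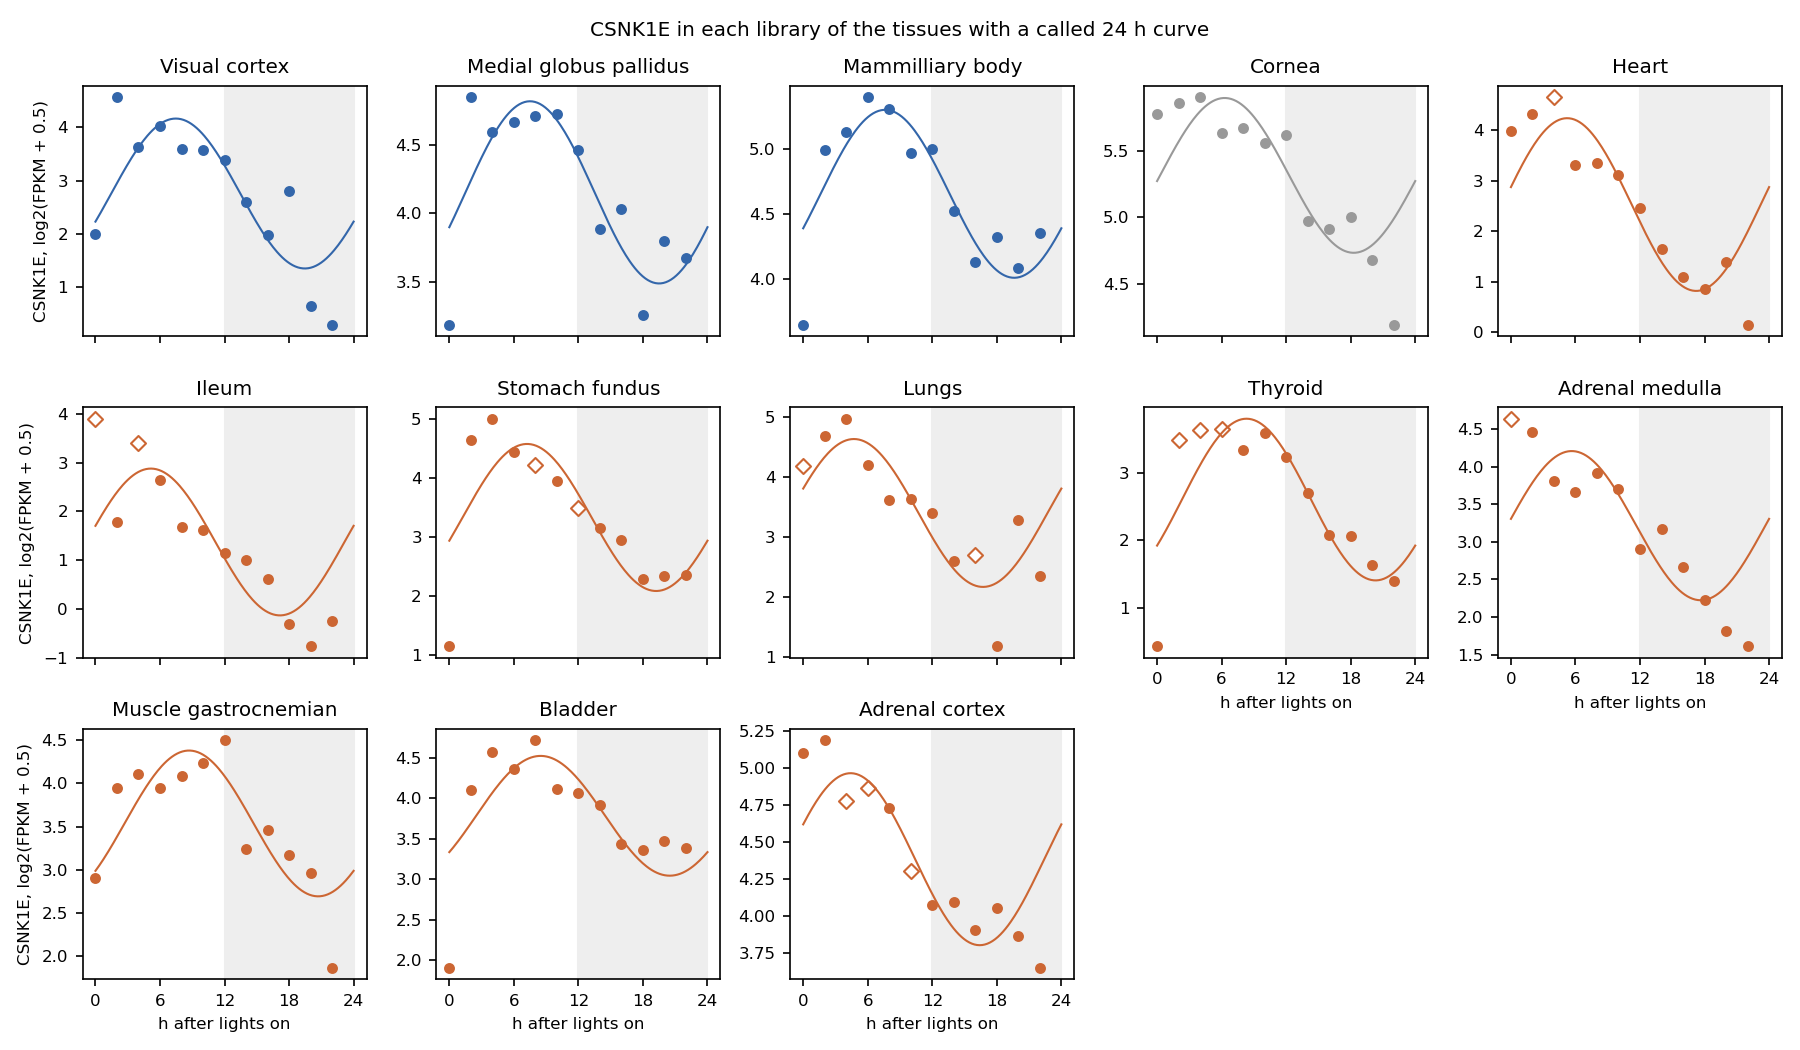
CSNK1E as log2(FPKM + 0.5) against zeitgeber time in hours in the 13 tissues called, 1 panel each with its own scale, with the fitted 24 h curve; points are single libraries, and open diamonds mark libraries that held markers of another tissue. Heart runs from 0.605 to 24.7 FPKM and thyroid from 0.85 to 12.0 FPKM, and all fitted peaks lie between ZT4.4 and ZT8.7, in the light hours.

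In suprachiasmatic nuclei CSNK1E ran from 10.1 FPKM at ZT18 through a median of 16.4 to 27.6 FPKM at ZT0. The amplitude of 0.69 ± 0.13 with a peak at ZT4.6 (SE, n = 12; unadjusted p = 0.000401 in the limma fit) was not called after adjustment (limma adjusted p = 0.084), in a tissue where 0.008% of genes were. The other 5 members had limma adjusted p from 0.283 to 0.701 there.

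CSNK1D was called in thyroid, cornea, heart, ileum and visual cortex, and all 5 are among the tissues called for CSNK1E. In thyroid it ran from 13.7 FPKM at ZT0 through a median of 29.6 to 45.9 FPKM at ZT4, 2.66-fold with a peak at ZT7.6 (limma adjusted p = 0.00271). That call was kept without any 1 of the 12 animals. The thyroid libraries of ZT2, ZT4 and ZT6 held skeletal muscle or keratinocyte markers. Without them CSNK1D ran up to 39.2 FPKM and CSNK1E up to 11.5 FPKM, and both calls were kept with later peaks, at ZT9.4 for CSNK1D and ZT10.7 for CSNK1E (limma adjusted p = 0.00101 and 0.00096). The other CSNK1D calls had limma adjusted p of 0.0322 in cornea, 0.0387 in heart, 0.0443 in ileum and 0.0488 in visual cortex.

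The night-peaking members were called in fewer places. CSNK1A1 was called in omental fat (2.40-fold, peak ZT18.4, limma adjusted p = 0.0242), in the libraries labelled adrenal cortex (2.02-fold, limma adjusted p = 0.044) and in stomach fundus (2.13-fold, limma adjusted p = 0.0474). In omental fat, where 37.7% of all genes were called, it was lowest at ZT6, with 29.0 FPKM, and highest at ZT18, with 125 FPKM. The library of ZT6 was 1 of 6 in omental fat that held markers of another tissue, and without these CSNK1A1 ran from 75.1 to 125 FPKM and the call was lost (limma adjusted p = 0.391). The rise in smooth muscle markers from ZT8 on moved with these values, and its part in the result was not tested. The CSNK1A1 and BTRC calls in the libraries labelled adrenal cortex and in stomach fundus were likewise lost without the libraries holding other markers (limma adjusted p from 0.114 to 0.288). The libraries labelled adrenal cortex and stomach fundus were also the ones called for BTRC, at 2.15-fold and 1.98-fold. Outside their own label, the libraries labelled adrenal cortex had stomach fundus libraries as their nearest at 7 of 12 times and omental fat libraries at the other 5. Calls in the libraries labelled adrenal cortex may therefore not be separate from those in stomach fundus and omental fat. Stomach fundus and omental fat were not compared with each other in this way. GSK3B was called in omental fat (1.94-fold, limma adjusted p = 0.0214), cornea (1.68-fold), the libraries labelled adrenal medulla (1.81-fold) and heart (1.53-fold), with peaks between ZT17.0 and ZT20.1. Without the libraries holding other markers the GSK3B call in omental fat was lost (limma adjusted p = 0.186). Of the 30 single-tissue calls over the 6 genes, 3 were kept without any 1 animal, 13 were lost without the libraries holding other markers, and 29 were lost with the score of the first component as a covariate.

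FBXW11 was the only member with called peaks on both sides of the day. In antrum, the lower stomach, it peaked at ZT6.3 with a 2.03-fold swing (limma adjusted p = 0.0302), from 10.6 FPKM at ZT20 through a median of 20.2 to 31.0 FPKM at ZT6. In putamen it peaked at ZT19.6 with a 2.43-fold swing (limma adjusted p = 0.0474), from 8.17 FPKM at ZT6 to 42.0 FPKM at ZT18. Of all genes 5.75% were called in antrum and 13.1% in putamen. In the libraries labelled adrenal cortex it peaked at ZT18.5 with a 2.17-fold swing (limma adjusted p = 0.0469), from 6.21 FPKM at ZT6 to 23.3 FPKM at ZT22. The library of ZT6 was thus the highest in antrum and the lowest in both others, but in the libraries labelled adrenal cortex it was 1 of 3 that held markers of another tissue. Over the 9 without such markers FBXW11 ran there from 15.5 to 23.3 FPKM, and the call was lost (limma adjusted p = 0.273), as it was in 10 of 12 refits without 1 animal. The putamen call was lost in 9 of 12 such refits. The antrum call was lost without the animal of ZT4, ZT6 or ZT8, with limma adjusted p of 0.0951, 0.0989 and 0.0547.

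The PER genes and a wider set of kinases, phosphatases, ligase partners and Wnt partners were read from a list of 20 genes, of which 18 were measured and 16 tested; CSNK2B and SKP1 were too low in the table, and GSK3A and CSNK2A1 were not analysed here. Body-wide 11 of 16 were called, 6 with a peak in the light and 5 in the dark, against 62.4% of all genes. The 3 PER genes were among those called, and of the 13 others 8 were. In brain 7 of the 16 were called, against 29% of all genes, and in periphery 10, against 60.7%. Among the other casein kinases, CSNK1G2 had the timing of CSNK1E, with an amplitude of 0.50 ± 0.07 at ZT5.7 (SE, limma adjusted p = 0.00066), while CSNK1G3 peaked at ZT17.3 with 0.27 ± 0.05 (SE, limma adjusted p = 0.00307). CSNK1G1 and CSNK2A2 were not called. Timing shared with a member was common, since 57.5% of all genes called body-wide peaked within 3 h of ZT6 and 39.3% within 3 h of ZT18.

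The catalytic subunits of protein phosphatase 1, which removes phosphates from PER, were all called. PPP1CA peaked at ZT6.2 with an amplitude of 0.37 ± 0.06 (SE, limma adjusted p = 0.00149), and PPP1CB and PPP1CC peaked at ZT18.3 and ZT18.4 with 0.19 ± 0.04 and 0.14 ± 0.03 (SE, limma adjusted p = 0.00457 and 0.0125). CUL1, the cullin of the ligase, peaked at ZT16.4 with 0.15 ± 0.03 (SE, limma adjusted p = 0.0036), and RBX1, its RING partner, was not called (limma adjusted p = 0.0955). Of the beta-catenin partners AXIN1 peaked at ZT6.4 and APC at ZT18.3, with amplitudes of 0.40 ± 0.06 and 0.21 ± 0.04 (SE, limma adjusted p = 0.000577 and 0.00156), and AXIN2 and CTNNB1 were not called. Of the substrates themselves, fitted peaks were found for PER1 at ZT3.1 with an amplitude of 1.15 ± 0.09, PER2 at ZT3.0 with 0.65 ± 0.05 and PER3 at ZT0.6 with 0.72 ± 0.05 (SE, n = 12; limma adjusted p = 0.000173, 5.22e-05 and 3.08e-05). In level, 5 of the 16 were higher and 9 lower in brain than in periphery, against 44.2% and 47.4% of all genes.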

How the data were processed

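PolyA RNA libraries of 64 baboon tissues were analysed as deposited by the authors, in FPKM. STAR, featureCounts and DESeq2 are named in the submitters' processing notes; for their versions and roles, and for the genome build, the entry is: not given in the sources used here. Values of all 26546 rows above 0 were whole multiples of 1 read within 0.01 read, which gave the depth of each library, and libraries were scaled by the median of ratios over genes, not by total. Columns of 8 libraries carry the mark approx, which no label explains. The members and lists were chosen with earlier results of these data known.

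Tests used limma 3.58.1 in R 4.3.3 on log2(FPKM + 0.5), for genes whose mean reached 1 FPKM, with Benjamini-Hochberg adjustment over all genes tested and calls at 0.05. The 24 h fit is a moderated F test of a cosine and a sine term. Body-wide, brain and periphery fits averaged deviations from tissue means per animal, for genes that pass in at least 50% of tissues. Levels were compared within animals, which the labels tie to the time of collection. The fold understates changes of low genes. Ratios were tested by permutation in R, 24 h ratios with 100000 resamples. Named genes were all members, a list of 20 pathway genes, and the 3 genes with the most similar tissue profile for each member. The scripts were tested on simulated data. Alternatives covered pseudocount, filter, scaling, covariates, moderation and libraries or animals left out. p-values measure the spread between 12 animals. Sequences of the members were not analysed here.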

Additional observations from a re-analysis of the deposited data

Results flagged for a closer look

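The 24 h curve of FBXW11 in antrum differed from those in 2 other tissues in which it was called, a comparison chosen after their values were seen. Within animals, the curve of antrum minus that of the libraries labelled adrenal cortex had a log2 amplitude of 1.07 ± 0.19 (SE, n = 12; limma adjusted p = 0.028, peak of the difference at ZT6.4). The curve of antrum minus putamen had 1.14 ± 0.19 (SE, n = 12; limma adjusted p = 0.00329, peak at ZT7.0). Of all genes tested in these differences, 1623 of 11196 and 4065 of 9940 were called. The antrum library of ZT4 matched the animal of ZT2. The antrum call itself was lost without that library, with the median of ratios within tissues, with a linear trend over collection order and without columns marked approx. In the libraries labelled adrenal cortex the lowest library, at ZT6, held markers of another tissue, and the call there was lost without the 3 such libraries (log2 amplitude 0.21, limma adjusted p = 0.273) and in 10 of 12 refits without 1 animal. The putamen call was lost in 9 of 12 such refits. The cause of the opposite phases was not tested.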

How the results depend on the processing

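Values below are fitted log2 amplitudes or counts of tissues. The axis score as a covariate took every 24 h call but that of FBXW11 in antrum. This score and the trend over collection order both run with the time of day. A call lost under them therefore cannot decide whether there is a 24 h curve. Body-wide amplitudes were then 0.127 for CSNK1E and 0.0708 for GSK3B, which were no longer called, and with a changed phase 0.0358 for CSNK1D, 0.00031 for CSNK1A1, 0.0588 for BTRC and 0.0191 for FBXW11. In brain they were 0.148 for CSNK1E and, with a changed phase, 0.216 for BTRC, 0.170 for CSNK1A1 and 0.0948 for FBXW11. In periphery they were 0.166 for CSNK1E, 0.0634 for CSNK1A1 and 0.0542 for GSK3B and, with a changed phase, 0.0836 for BTRC, 0.0667 for CSNK1D and 0.0387 for FBXW11. The difference of brain and periphery for GSK3B turned, at 0.0406, and the 24 h ratio of CSNK1D over CSNK1E was 0.152. Single tissues turned for CSNK1D in heart (0.177), ileum (0.268) and visual cortex (0.0344), and for CSNK1E in adrenal medulla (0.156), bladder (0.216), ileum (0.474), stomach fundus (0.282) and thyroid (0.123). Tissues called were 0 each for CSNK1D, CSNK1E, CSNK1A1, BTRC and GSK3B and 1 for FBXW11. With a linear trend over the collection order the body-wide calls of CSNK1D (0.110), CSNK1A1 (0.154), FBXW11 (0.182) and GSK3B (0.141), the brain call of CSNK1E (0.422) and the peripheral calls of CSNK1D (0.131), CSNK1A1 (0.215), FBXW11 (0.260) and GSK3B (0.135) were lost, while CSNK1E in adrenal medulla (0.217) and the GSK3B difference (0.0184) turned. Tissues called were then 2 for CSNK1D and 0 each for CSNK1A1, BTRC, FBXW11 and GSK3B. With an equal sum of FPKM the body-wide calls of CSNK1A1 (0.157) and FBXW11 (0.166) were lost, CSNK1A1 in brain (0.0346) and the CSNK1D difference (0.0424) turned, BTRC in brain against periphery turned to -0.58 and FBXW11 was called at -0.73. Tissues called over 24 h were 2 for CSNK1D and 5 for FBXW11. Tissues higher were 9 for BTRC, 11 for CSNK1A1 and 12 each for CSNK1D, FBXW11 and GSK3B, and tissues lower were 6, 15, 12 and 11 for BTRC, CSNK1A1, CSNK1D and GSK3B. With the median of ratios within tissues BTRC was called body-wide (0.162) and in periphery (0.207) and GSK3B in brain (0.205), and tissues called were 5 for CSNK1A1 and 6 for FBXW11. Without a filter, tissues called were 1 for CSNK1D, 5 for CSNK1E, 1 for CSNK1A1, 0 for BTRC, 1 for FBXW11 and 2 for GSK3B. Without moderation they were 1 for CSNK1D, 3 for CSNK1E, 1 for BTRC and 1 for FBXW11, and FBXW11 in periphery (0.229) was lost. A filter of 5 FPKM and a pseudocount of 0.1 left 1 tissue for BTRC, and with that filter the 24 h ratio of BTRC over FBXW11 was called (0.105). With a pseudocount of 1, CSNK1D was called in brain (0.182) and 3 tissues were lower for GSK3B. Without libraries holding other markers CSNK1A1 was lost body-wide (0.117), CSNK1D in brain (0.216) and BTRC in periphery (0.141) were called, no tissue was called for CSNK1A1 (0) and 5 were lower for BTRC. Without libraries matching another animal CSNK1A1 (0.130) and FBXW11 (0.143) were lost body-wide and FBXW11 in periphery (0.217), CSNK1D was called in brain (0.227), 1 tissue was called for BTRC, 1 was higher for CSNK1D and 0 for GSK3B, and 1 and 3 were lower for BTRC and GSK3B. Without the shallow amygdala library of ZT8, CSNK1D was called in brain (0.225). The last 3 settings use fewer libraries. All libraries of testicles, thyroid, stomach fundus, duodenum, ascending colon and descending colon matched another animal, as did 6 of 11 in iris. Without such libraries these tissues were not tested on their own. The counts then lack testicles for GSK3B and iris for CSNK1D. For BTRC they lack ascending and descending colon among tissues lower and stomach fundus over 24 h. The cause of the other changes was not tested. Leaving out 1 animal at a time gave 0.126 to 0.187 for CSNK1A1 and 0.132 to 0.191 for FBXW11 body-wide, 0.143 to 0.211 for CSNK1D in brain, 0.111 to 0.172 for BTRC and 0.166 to 0.274 for FBXW11 in periphery, and 0.0559 to 0.0916 for the 24 h ratio of BTRC over FBXW11. Tissues called ranged from 1 to 6 for CSNK1D, 3 (without ZT6) to 22 (without ZT0) for CSNK1E, 0 to 3 for CSNK1A1, 0 to 2 for BTRC, 0 to 4 for FBXW11 and 0 to 5 for GSK3B. Tissues lower for CSNK1D were 2 to 4, and for GSK3B tissues higher were 0 to 1 and lower 3 to 5. CSNK1E stayed called body-wide without any 1 animal (limma adjusted p 9.61e-05 to 0.00257). The animal pairs brain and periphery in the level tests, and without that replicate block all 80 values kept their direction and side of the threshold, CSNK1E at 0.87 in brain against periphery among them.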

Other observations

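Some tissues spread widely within a gene. FBXW11 in white adipose tissue ran from 0.0855 FPKM at ZT2 through a median of 3.54 to 19.2 FPKM at ZT22. CSNK1E in iris reached 239.6 FPKM at ZT8, a library that held adipocyte and smooth muscle markers, against a tissue median of 26.02 FPKM. CSNK1E in liver lay at or below 1.52 FPKM in 10 of 12 libraries.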
